A study of Mus musculus with 10 samples.

Results

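The accessible sites and H3K4me3 regions of 10 genes that drive the G1 phase of the cell cycle were examined in mouse neural stem and progenitor cells (NSPCs): the D-type cyclin genes *Ccnd1*, *Ccnd2* and *Ccnd3*, the E-type cyclin genes *Ccne1* and *Ccne2*, the kinase genes *Cdk4* and *Cdk6*, *E2f1*, *Myc* and *Mycn*. A peak was given to a gene when it lay in the gene body or within 50 kb of it and the nearest start site (TSS) of a protein-coding gene belonged to that gene. Peaks of the 6 ATAC-seq libraries that overlap or abut were merged, and 74 of the 108367 sites in the genome were sites of these genes. They were held by 10 of 21911 protein-coding genes. ATAC-seq reads come from DNA that a transposase can reach, so a peak marks open chromatin, and H3K4me3 is a histone mark of active and poised promoters.

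All cells came from C57BL/6 mice at postnatal day 5 and were grown in culture with 20 ng/ml of FGF2. Activated NSPCs also received 20 ng/ml of EGF and divide. Quiescent NSPCs received 25 ng/ml of BMP4 in place of EGF for 4 days according to the labels, and the methods give a shorter time. Reactivated NSPCs spent 4 days in the BMP4 medium and then 9 to 12 days in the activating medium, and were compared with cells that had not gone through this cycle. ATAC-seq was done on 2 biological replicates of each state, and H3K4me3 ChIP-seq on 1 library of quiescent and 1 of activated cells. The cultures mix stem cells with their dividing progenitors, and a peak in bulk cells cannot tell whether fewer cells were open or each cell was less open.

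D-type cyclins bind the kinases CDK4 and CDK6 and start the phosphorylation of the retinoblastoma protein, which holds E2F factors in check. Free E2F, of which E2F1 is the founding member, turns on the genes of DNA replication and the E-type cyclins, which activate CDK2 and carry the cell into S phase. MYC and MYCN bind E-boxes with their partner MAX, promote growth, and act upstream of the D cyclins and CDK4. In the postnatal brain, cyclin D2 and MYCN are known for their part in the division of neural progenitors, while BMP signals hold neural stem cells out of the cycle.

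The 6 ATAC-seq lists held 47037 to 106830 peaks on the chromosomes used, and the reactivated lists were the longest although their reads had been reduced in number before the calls. The background pileup was 12.1 in replicate 2 of the quiescent cells and 6.01 to 6.61 in the other 5 libraries, and the lowest pileup of a called peak was 16 to 25. The median fold enrichment, the ratio of pileup to background, was 5.58 to 7.41 in the quiescent and activated libraries and 10.4 and 10.8 in the reactivated ones, over the sites with a peak in all 6. At the promoters of 8 NSPC marker genes, 7 had a peak in all 6 libraries, and *Slc1a3* had none in the activated ones. Of 3 oligodendrocyte, 5 microglia and 4 endothelial markers none had a promoter peak in all 6 libraries, and of 5 neuronal markers 2 did. Of the oligodendrocyte markers, *Mog* and *Mag* had none in any library, and *Mbp* had 2.60 in 1 quiescent library and 5.25 and 3.89 in the reactivated ones. Of the microglia and endothelial markers, *Aif1*, *Csf1r*, *Ptprc*, *Cldn5*, *Pecam1* and *Cdh5* had no promoter peak in any library, and *Cx3cr1* had 1, of 2.50 in a quiescent library. The remaining *P2ry12* and *Kdr*, named after their values were seen, moved with state: fold enrichment at *P2ry12* was 2.06 in 1 quiescent library, 6.23 and 4.42 in the activated and 9.61 and 9.58 in the reactivated libraries, and at *Kdr* it was 2.60 in 1 quiescent library, 4.91 and 3.99, then 9.58 and 7.30. Their part in the results was not tested.

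All 10 genes were open at the promoter in every state, and the sites that differed most between quiescent and activated NSPCs lay outside promoters. A site 14.2 kb upstream of *E2f1* and a site in an intron of *Cdk6* were called in 1 of the 2 quiescent libraries. As deposited, fold enrichment there was higher in both activated libraries and highest in both reactivated ones. The reactivated libraries were higher across the genome, by a median of 0.55 on the log2 scale against activated cells. Relative to each library's median, the reactivated libraries lay below the activated ones at the *E2f1* site and above them at the *Cdk6* site. A site in an intron of *Ccnd2* was weak in 1 of the 2 quiescent libraries, and its difference rested on that library. The reverse was seen at 1 site in the body of *Ccnd1*, which had a peak in both quiescent libraries and in neither activated one.

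The number of sites per gene was 14 for *Cdk6*, 12 for *Ccnd2*, 10 for *Ccnd3*, 9 each for *Ccnd1* and *Ccne1*, 7 for *Myc*, 5 for *Mycn*, 4 for *E2f1* and 2 each for *Ccne2* and *Cdk4*. The median of 8 compares with a median of 2 over all protein-coding genes, and *Cdk6* is also the longest of the 10 at 189524 bp. The peaks behind these sites numbered 45 and 43 in the quiescent libraries, 57 and 54 in the activated and 80 in each reactivated library. The whole lists held 54713 and 60355 peaks in the quiescent, 58327 and 47037 in the activated and 106270 and 106830 in the reactivated libraries. Counted as sites with a peak, the numbers were 35 in both quiescent libraries, 43 and 39 in activated cells, and 59 and 60 in reactivated cells. The quiescent and activated counts did not overlap at these genes, by a smaller margin in sites than in peaks, and over the whole lists they did.

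**Figure D1:**
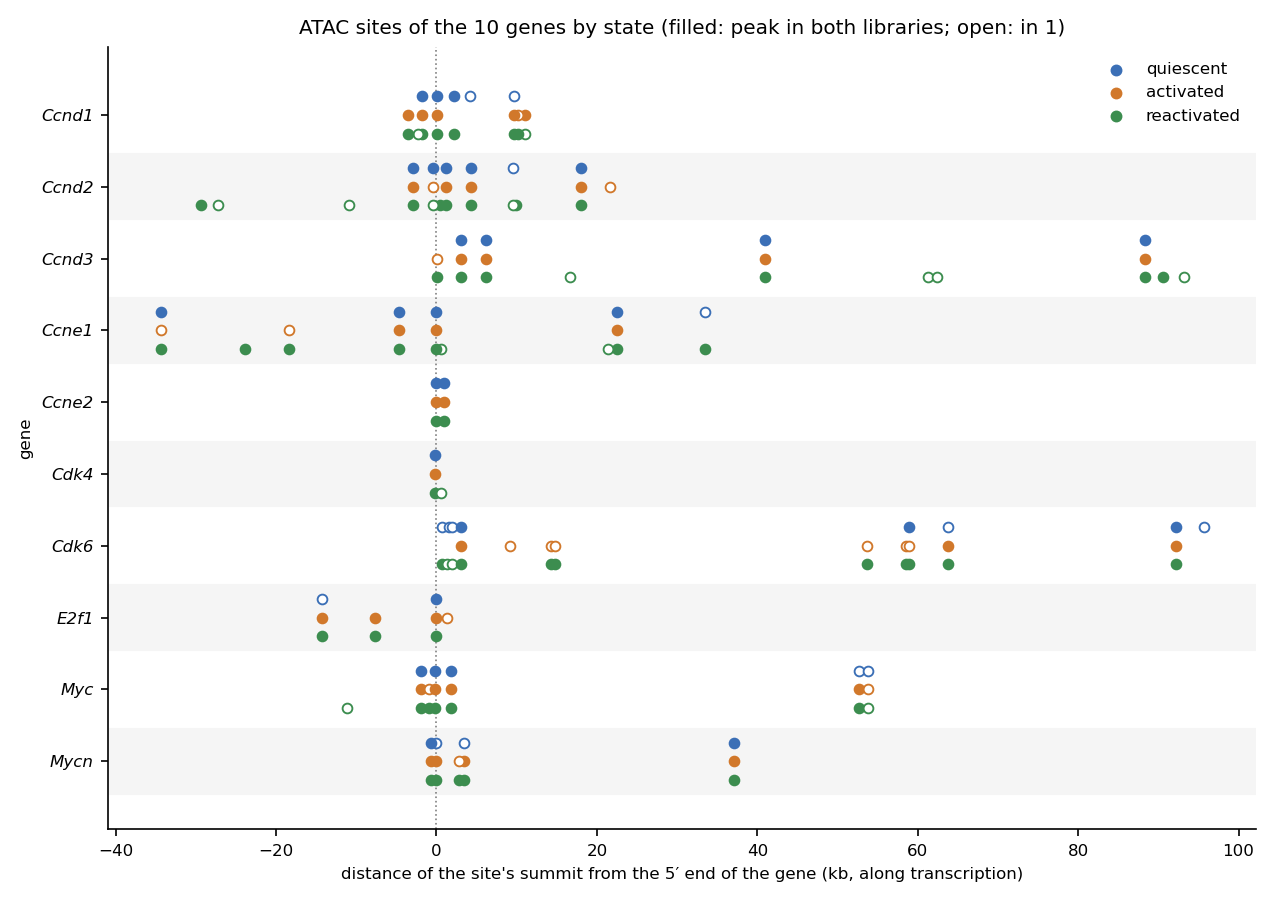
Each circle is a site with a peak in a state, placed by the distance of its summit from the 5′ end of the gene in kb along the direction of transcription, with a row for each gene and state. Filled circles had a peak in both libraries and open circles in 1, and the 2 sites upstream of *E2f1* are filled in activated and reactivated cells only.

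Sites were then sorted by presence of a peak in the 4 quiescent and activated libraries. Of the 74 sites, 34 were called in quiescent as well as activated cells, here termed shared, against 32.0% of all sites. Only 1 was quiescent-specific, with a peak in both quiescent and neither activated library, against 6.26% of all sites, and 3 were activated-specific, against 4.24%. A further 19 (25.7%, against 20.8% of all sites) were in 1 of the 4 libraries, and 17 (23.0%, against 36.7%) were in reactivated libraries alone. Both reactivated libraries had a peak at 32 of the 34 shared sites, against 95.5% of such sites in the genome, at 2 of the 3 activated-specific sites, against 91.9%, and at the quiescent-specific site, against 55.0%. With each quiescent or activated library left out, the quiescent-specific count ran from 2 to 5 and the activated-specific count from 5 to 11, so these small counts depend on the number of libraries required.

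Promoters, taken as 1 kb on each side of any protein-coding TSS of the gene, carried a peak in all 6 ATAC-seq libraries at 10 of 10 genes, against 52.0% of protein-coding genes. The strongest promoter peaks were those of *Cdk4*, *Ccne1* and *E2f1*, with a median percentile of 95.3, 94.9 and 94.3 among the peaks of each library. Their percentiles overlapped from library to library, so no order among them can be given. *Ccnd3* and *Ccne2* followed at 86.4 and 84.7 and *Cdk6* at 72.7. The promoters of *Mycn*, *Ccnd2*, *Ccnd1* and *Myc* were nearer the middle of the lists, at 64.3, 63.0, 59.6 and 56.3. The strongest promoter peak of *Ccnd3* was not at the 5′ end of the gene but at an internal TSS 88392 bp downstream, while its first TSS had a peak in replicate 1 of the activated and in both reactivated libraries only. The other 14 of the 24 promoter sites ranged from 2.17 to 6.23 in fold enrichment where a peak was called. Over the 50 sites outside promoters the range was 2.06 to 19.5.

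**Figure D2:**
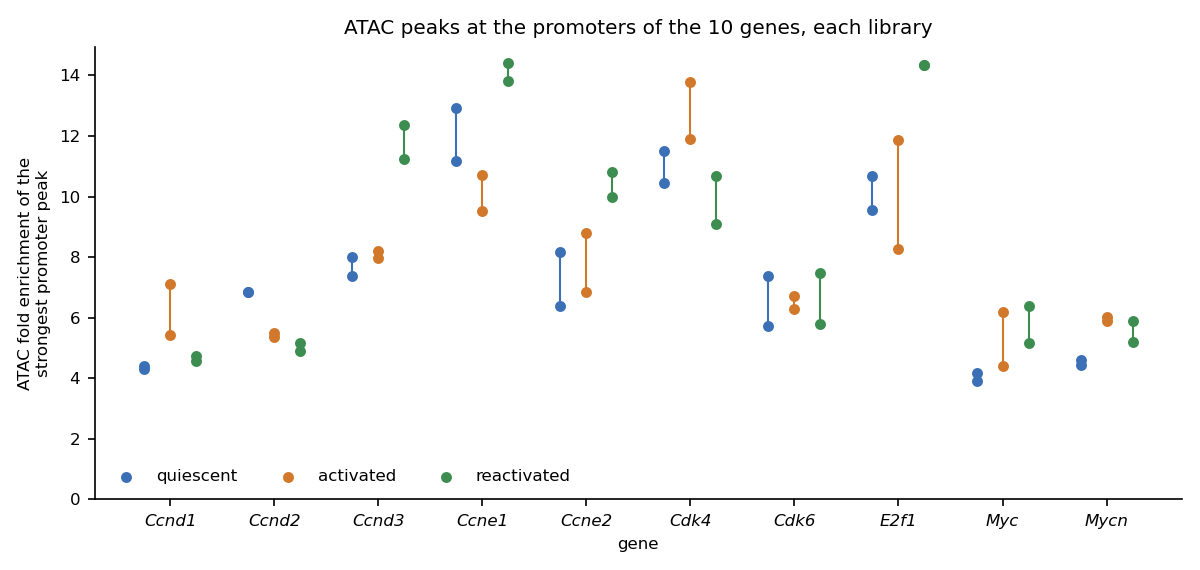
Fold enrichment of the strongest promoter peak of each gene, on a linear axis from 0, with 1 point for each library and a line between the 2 libraries of a state. All 60 values are peaks that were called, and *Ccne1*, *Cdk4* and *E2f1* are the highest in quiescent cells, between 9.54 and 12.9.

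A set of 3 promoters is shown from RefSeq (GRCm38.p6, 250 bases before to 50 after the start), because a difference was called at the *Cdk4* and *Ccne1* peaks and because *Mycn* carried E2F letters. At *Cdk4* the calls were those of reactivated cells against the other states. Between quiescent and activated cells its log2 difference was 0.00 and did not pass. Capitals mark every match, on either strand, to CACGTG (the E-box of MYC and MAX), TTTCGCGC or TTTGGCGC (E2F), TGACTCA, which is TGAGTCA on the other strand (AP-1), TTGGC (the core of the NFI motif) and GGCGCC (bound by SMADs of the BMP pathway). TTGGC lies within TTTGGCGC, which can also overlap GGCGCC and TTTCGCGC. The windows are chr10:127063285-127063584 on the plus strand for *Cdk4*, chr7:38107441-38107740 on the minus strand for *Ccne1* and chr12:12941787-12942086 on the minus strand for *Mycn*.
*Cdk4*: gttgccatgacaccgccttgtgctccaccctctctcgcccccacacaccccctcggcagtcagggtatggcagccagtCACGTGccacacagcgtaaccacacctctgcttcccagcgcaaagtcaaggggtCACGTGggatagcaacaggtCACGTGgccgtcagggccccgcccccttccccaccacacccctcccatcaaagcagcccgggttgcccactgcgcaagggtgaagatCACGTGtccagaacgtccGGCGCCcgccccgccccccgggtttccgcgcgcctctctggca
*Ccne1*: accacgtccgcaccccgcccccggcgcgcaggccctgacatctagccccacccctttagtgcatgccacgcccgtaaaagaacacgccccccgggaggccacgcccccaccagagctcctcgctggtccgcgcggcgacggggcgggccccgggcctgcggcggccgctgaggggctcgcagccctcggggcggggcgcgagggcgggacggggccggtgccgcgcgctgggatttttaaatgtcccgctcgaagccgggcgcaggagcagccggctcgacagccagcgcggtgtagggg
*Mycn*: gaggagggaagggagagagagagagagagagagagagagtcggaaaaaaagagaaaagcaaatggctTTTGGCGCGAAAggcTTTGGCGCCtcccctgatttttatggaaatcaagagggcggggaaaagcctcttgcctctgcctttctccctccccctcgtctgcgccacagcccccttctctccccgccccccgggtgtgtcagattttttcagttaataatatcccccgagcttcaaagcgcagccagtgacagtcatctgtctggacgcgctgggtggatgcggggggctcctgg
The *Cdk4* promoter held 4 CACGTG matches, beginning 172, 118, 98 and 11 bases before the start, and 7.15% of the 32851 promoters in the table hold at least 1. The *Mycn* promoter held 2 matches to TTTGGCGC and 1 to TTTCGCGC, which 0.514% and 0.323% of promoters hold. The *Ccne1* window held none of the listed letters. The *Mycn* window lies over the weaker of its 2 promoter sites, which had 2.29 in 1 quiescent library, 3.50 and 3.49 in activated cells, and 2.17 and 3.90 in reactivated libraries. The table had entries for 6 of the 10 genes, the others being *Ccnd3*, *Cdk6* and *E2f1*, and *Ccnd1*, *Ccnd2*, *Ccne2* and *Myc* had none.

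Strength was compared at the 24 of the 74 sites with a peak in all 6 libraries. These passed because they were called everywhere, so they are not the whole set, and sites that are lost in a state are not among them. The log2 of the highest fold enrichment per site was centred on each library's median and tested with limma over all 23116 such sites. With 2 libraries against 2, an exact permutation test cannot give a two-sided p below 0.333, so the call rests on the spread that limma shares between sites. In activated against quiescent cells 1 of the 24 sites was higher, against 6.35% of all sites tested, and 1 was lower, against 7.05%. The median log2 difference was -0.11 at these genes and -0.07 over all sites, and 0.11 and 0.15 before centring. Without centring, 83.2% of the sites called genome-wide were higher in activated cells, as against 47.4% with it and 56.5% after quantile normalization.

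**Figure D3:**
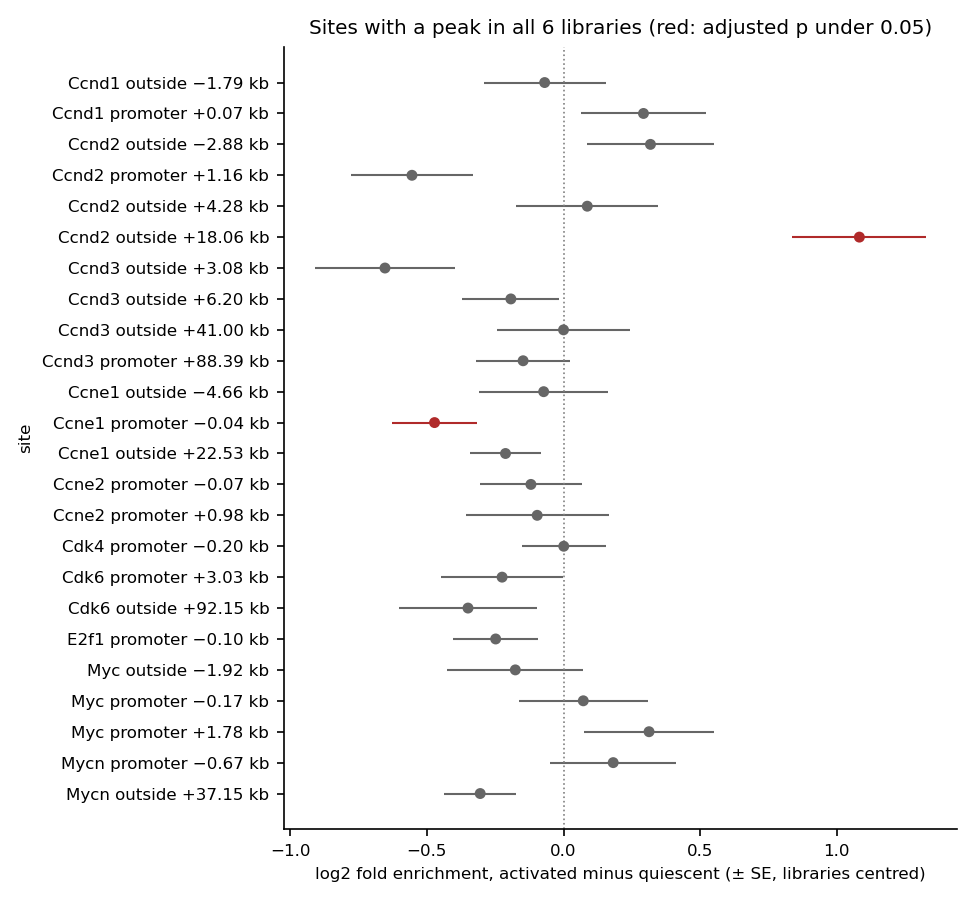
The log2 difference in fold enrichment between activated and quiescent libraries, with its SE, for the 24 sites with a peak in all 6 libraries, labelled by the distance in kb from the 5′ end of the gene. The site in *Ccnd2* at 1.08 and the promoter of *Ccne1* at -0.47 are drawn in red, and the other 22 did not pass the test.

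To keep the sites that had no peak in some libraries, a second fit gave such a library the median fold enrichment of its own peaks with a −log10 q under 1.5, which was 1.99 to 2.42. This stand-in is no detection limit, since the lists hold peaks down to 1.20 in fold enrichment. This fit was added after the data had been seen. It covered 56 of the 74 sites, namely those with a peak in at least 2 libraries, and its differences at sites with an absent peak depend on that stand-in and are no bound. The spread in this fit was shared in full between sites, so a small p rests on all sites rather than on the 4 libraries of 1 site. It called 4 sites higher in activated cells, against 5.45% of 74759 sites, and 2 lower, against 8.66%. At 2 of the 6, the nearer upstream site of *E2f1* and the intron site of *Ccnd1*, 1 state had no peak in either library and all its values were stand-ins, so these are given as a description with no test. The farther upstream site of *E2f1* and the intron site of *Cdk6* had a called value in only 1 quiescent library. Their differences are likewise given without a test. The 6 sites are taken in turn below, by the role of the gene.

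**Figure D4:**
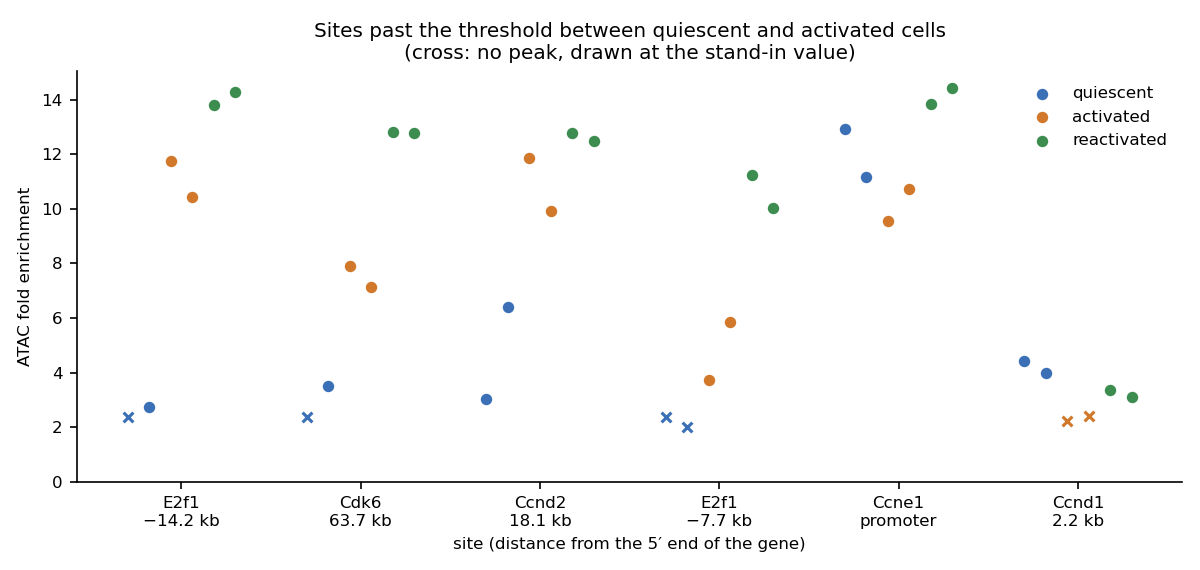
Fold enrichment in each library at the 6 sites called between quiescent and activated cells, on a linear axis from 0, with a cross at the library's stand-in value where no peak was called. At the *E2f1* site 14.2 kb upstream 1 quiescent library lies at 2.75 and the other is drawn at its stand-in. The activated and reactivated libraries lie there at 10.4 or more.

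Among the D cyclin genes, *Ccnd2* had the largest difference of the sites called in all libraries. The site at chr6:127133652-127134432 lies in an intron, 18059 bp downstream of the 5′ end of the gene. Fold enrichment there was 3.02 and 6.38 in quiescent, 11.9 and 9.91 in activated cells, and 12.8 and 12.5 in reactivated libraries, so the quiescent libraries were the lowest without overlap. The centred difference was 1.08 on the log2 scale with an SE of 0.25, a 2.12-fold increase in activated cells (limma adjusted p = 0.00401). Without replicate 1 of the quiescent cells it was 0.46 and did not pass (limma adjusted p = 0.116), and with the mean of the peaks in the site in place of the highest it was 0.51 and did not pass (limma adjusted p = 0.433). It was also lost in the fit over more sites that set absent peaks to the lowest value of the list (limma adjusted p = 0.0898). The promoter of *Ccnd2* went the other way in level, at 6.85 and 6.84 in quiescent and 5.51 and 5.37 in activated cells, a log2 difference of -0.55 that did not pass (limma adjusted p = 0.102).

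*Ccnd1* held both kinds of state-specific sites. The quiescent-specific site, at chr7:144937584-144937796 in an intron 2240 bp from the 5′ end, had a fold enrichment of 4.42 and 3.99 in quiescent libraries, no peak in activated ones and 3.38 and 3.09 in reactivated ones. With absent peaks at the stand-in value the log2 difference would be -1.08, and with the lowest value of the list -1.99, so its size was set by the value chosen. The activated-specific sites lay 3597 bp upstream, with 3.56 and 2.45 in activated cells, and 11040 bp downstream of the 5′ end in the neighbouring gene LTO1, with 2.83 and 2.67. Quiescent cells had no peak at either. At the *Ccnd1* promoter the libraries had 4.40 and 4.29 in quiescent, 7.11 and 5.42 in activated cells, and 4.55 and 4.71 in reactivated cells. The activated pair was the highest without overlap, yet the difference of 0.29 did not pass (limma adjusted p = 0.434). The strongest *Ccnd1* site outside the promoter, 1791 bp upstream, had 5.07 and 4.99, then 5.77 and 5.41, then 5.92 and 7.02 from quiescent to reactivated cells. These did not overlap, and no centred difference passed, the largest being -0.51 between reactivated and quiescent cells (limma adjusted p = 0.0730).

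The main promoter peak of *Ccnd3* had 7.37 and 7.997 in quiescent and 8.20 and 7.97 in activated cells, a difference of -0.15 that did not pass (limma adjusted p = 0.624). A site in an intron 40996 bp from the 5′ end had 4.60 and 2.90 in quiescent, 4.11 and 4.42 in activated cells, and 10.9 and 11.4 in reactivated libraries, which stood apart from the rest. It was higher in reactivated cells by 0.73 on the centred log2 scale against activated cells (SE 0.24, limma adjusted p = 0.0329) and by 0.73 against quiescent cells (limma adjusted p = 0.0204). Leaving out either reactivated library or setting absent peaks to the lowest value ended both calls, leaving out either activated library ended the call against activated cells, and leaving out replicate 2 of the quiescent cells ended the call against quiescent cells. The strongest *Ccnd3* site outside promoters, 6195 bp from the 5′ end, had 7.94 and 8.34 in quiescent, 8.67 and 7.95 in activated cells, and 9.40 and 12.6 in reactivated cells. *Ccnd2* and *Ccnd3* also held 10 of the 17 sites seen in reactivated cells alone, 5 each.

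Of the kinase genes, *Cdk6* carried its difference in a long intron. The site at chr5:3404815-3405565, 63727 bp from the 5′ end, had no peak in replicate 1 and 3.52 in replicate 2 of the quiescent cells, 7.92 and 7.13 in activated cells, and 12.8 in both reactivated libraries. The called values of the 3 states did not overlap, but in quiescent cells replicate 2 alone had such a value. With the absent peak at the stand-in value the log2 difference would be 1.16, which is a description with no test. With 1 quiescent or activated library left out it was 0.82 to 1.49. The 1.49, without replicate 2 of the quiescent cells, compares with the stand-in alone and is no test. With the lowest value of the list in place of the stand-in the difference was 1.57, so the size rested on the value chosen. The main promoter peak of *Cdk6* had 5.73 and 7.37 in quiescent and 6.71 and 6.27 in activated cells, which overlapped. *Cdk4* had 1 site in quiescent and activated libraries, its promoter, with 10.5 and 11.5 in quiescent and 13.8 and 11.9 in activated cells. The centred difference was 0.00 with an SE of 0.15, and the second site, 602 bp downstream, was called in 1 reactivated library at 2.45.

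Of the E cyclin genes, *Ccne1* had the one promoter past the threshold. Its peak at chr7:38107244-38108156 had 12.9 and 11.2 in quiescent, 9.54 and 10.7 in activated cells, and 13.8 and 14.4 in reactivated libraries, so the activated pair was the lowest without overlap. The difference of -0.47 (SE 0.16, limma adjusted p = 0.0462) was close to the threshold, and it was lost without centring, after quantile normalization, with a stricter peak threshold, with absent peaks at the lowest value of the list and when any library other than replicate 2 of the activated cells was left out. The strongest site of *Ccne1*, 22533 bp downstream of its start and beyond the gene, was among the strongest peaks of every list with 14.0 and 13.7, 15.0 and 12.9, and 17.4 and 19.5, and its difference between quiescent and activated cells, -0.21, did not pass (limma adjusted p = 0.297). *Ccne2* had 2 sites, both at the promoter and both in all 6 libraries. The stronger had 6.39 and 8.17 in quiescent, 8.79 and 6.85 in activated cells, and 9.97 and 10.8 in reactivated cells, and the first 2 states overlapped.

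The largest difference of the 6 was at *E2f1*, which encodes the transcription factor downstream of the kinases. The site at chr2:154583897-154584504, intergenic and 14239 bp upstream of the gene, had no peak in replicate 1 and 2.75 in replicate 2 of the quiescent cells, 11.7 and 10.4 in activated cells, and 13.8 and 14.3 in reactivated cells. With the absent peak at the stand-in value the log2 difference would be 1.90. Since 1 of the 2 quiescent values was the stand-in, this is a description with no test. With 1 quiescent or activated library left out the difference was 1.74 to 2.05. The 2.05, without replicate 2 of the quiescent cells, compares with the stand-in alone and is no test. With the lowest value of the list in place of the stand-in the difference was 2.31, so its size depended on the value chosen. A second site 7668 bp upstream, at chr2:154577336-154577781, had no peak in either quiescent library, 3.71 and 5.85 in activated cells, and 11.2 and 10.03 in reactivated cells, and was one of the 3 activated-specific sites. With both quiescent values at the stand-in the log2 difference would be 0.88, and with the lowest value of the list 1.63. The *E2f1* promoter itself, with 9.54 and 10.7 in quiescent, 11.9 and 8.28 in activated cells, and 14.3 in both reactivated libraries, overlapped between the first 2 states. Neither upstream site had an H3K4me3 region in either state.

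The 300 bases around the summit of 3 sites outside promoters, those with the largest differences at the stand-in value, are shown. They come from the plus strand of GRCm38 (mm10), with the same letters in capitals. The windows are chr2:154583981-154584280 near *E2f1*, chr5:3405062-3405361 in *Cdk6* and chr6:127133984-127134283 in *Ccnd2*. With the lowest value of the list, the intron site of *Ccnd1* (-1.99) and the nearer upstream site of *E2f1* (1.63) would come before *Cdk6* (1.57) and *Ccnd2* (1.08).
*E2f1* site: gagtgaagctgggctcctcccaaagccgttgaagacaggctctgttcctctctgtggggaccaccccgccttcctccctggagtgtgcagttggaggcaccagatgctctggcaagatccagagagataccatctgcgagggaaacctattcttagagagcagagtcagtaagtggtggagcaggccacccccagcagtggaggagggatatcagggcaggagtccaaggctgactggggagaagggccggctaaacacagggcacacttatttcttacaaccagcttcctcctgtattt
*Cdk6* site: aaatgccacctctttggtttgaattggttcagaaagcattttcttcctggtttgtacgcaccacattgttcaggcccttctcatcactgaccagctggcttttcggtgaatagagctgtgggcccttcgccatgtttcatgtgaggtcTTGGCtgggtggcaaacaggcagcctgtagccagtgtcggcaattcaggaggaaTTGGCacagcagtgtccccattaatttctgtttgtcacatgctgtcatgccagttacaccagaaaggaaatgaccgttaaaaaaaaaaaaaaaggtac
*Ccnd2* site: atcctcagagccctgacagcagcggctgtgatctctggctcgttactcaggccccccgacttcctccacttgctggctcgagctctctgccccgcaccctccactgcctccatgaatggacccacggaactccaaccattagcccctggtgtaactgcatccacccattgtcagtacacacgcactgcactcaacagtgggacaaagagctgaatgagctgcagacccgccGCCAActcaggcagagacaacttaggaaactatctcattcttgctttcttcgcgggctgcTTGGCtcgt
The *Cdk6* and *Ccnd2* windows each held 2 TTGGC, and the *E2f1* window none of the letters. Over the 87405 sites of the genome outside promoters, 56.2% of such windows hold TTGGC.

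At *Myc* and *Mycn* no site was called between quiescent and activated cells in either fit. The main *Myc* promoter site had 4.17 and 3.92 in quiescent, 6.18 and 3.97 in activated cells, and 5.16 and 6.37 in reactivated libraries, and the quiescent pair lay within the activated range or just below it. A second peak 1777 bp from the 5′ end, at an internal TSS, had 2.63 and 3.13, then 3.95 and 4.38, then 4.10 and 4.37. There the quiescent libraries were the lowest without overlap, but the difference of 0.31 did not pass (limma adjusted p = 0.423). The sites 52617 and 53816 bp downstream lie in an exon and an intron of *Pvt1*, a long noncoding RNA gene beside *Myc*, and they were counted here because only protein-coding TSSs were used. The site in the exon had 4.59 in 1 quiescent library, 5.57 and 3.28 in activated cells, and 8.89 and 6.38 in reactivated ones. The *Mycn* promoter peak, 667 bp upstream of the start, had 4.43 and 4.59 in quiescent, 5.90 and 6.03 in activated cells, and 5.20 and 5.90 in reactivated cells, a difference of 0.18 that did not pass (limma adjusted p = 0.656). The strongest *Mycn* site, 37149 bp downstream in an exon of 4930519A11Rik, had 14.1 in both quiescent, 15.7 and 11.3 in activated cells, and 17.9 and 18.3 in reactivated libraries.

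Reactivated cells were compared with both other states at the same 24 sites. Fold enrichment as deposited was higher in the reactivated libraries across the genome, by a median of 0.55 on the log2 scale against activated and 0.72 against quiescent cells, so differences are given relative to each library's median. Against activated cells 1 of the 24 sites was higher, against 7.66% of all sites, and 7 were lower, against 14.5%. Without centring 6 of the 24 (25%) were higher and none was lower, against 52.6% and 0.472% of all sites, while 99.1% of the calls genome-wide were then higher in reactivated cells, 34.5% with centring and 51.1% after quantile normalization. Against quiescent cells 2 were higher, against 11.5%, and 10 were lower, against 25.7%, and without centring 9 of the 24 (37.5%) were higher and none lower, against 68.2% and 0.545% of all sites. Of these calls genome-wide, 99.2% were then higher in reactivated cells, 30.8% with centring and 49.2% after quantile normalization. These comparisons share libraries with each other.

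The promoters that were lower in reactivated than in activated cells relative to the median were those of *Ccnd1*, *Ccnd2*, *Cdk4*, *Cdk6* and *Mycn*, joined by the sites 2885 bp upstream of *Ccnd2* and 1918 bp upstream of *Myc*. The *Cdk4* and *Ccnd1* calls passed with each of the 6 libraries left out. Both *Ccnd2* calls and the *Mycn* call were lost without replicate 2 of the activated cells or either reactivated library, the *Myc* call without replicate 2 of the activated or replicate 1 of the reactivated cells, and the *Cdk6* call without any 1 of the activated or reactivated libraries. After quantile normalization *Cdk6*, *Myc* and the upstream *Ccnd2* site did not pass, and the same 3 were lost with absent peaks at the lowest value of the list. With the mean of a site's peaks the *Cdk4* and *Ccnd1* calls alone of the 7 passed, and with a −log10 q of at least 10 the *Cdk6* call was lost and the upstream sites of *Ccnd2* and *Myc* were not tested. At *Cdk4* the reactivated libraries had 9.09 and 10.7 and the activated ones 13.8 and 11.9, lower without overlap also before centring. The centred difference was -1.03 (SE 0.15, limma adjusted p = 0.000167), and without centring it was -0.38 and did not pass (limma adjusted p = 0.0791). At *Ccnd1* it was -1.07 (SE 0.23, limma adjusted p = 0.00287), and -0.42 without centring. At *Cdk6* the sign turned, from -0.63 with centring to 0.02 without. Against quiescent cells the promoters of *Ccnd1*, *Ccnd2*, *Ccne1*, *Cdk4* and *Cdk6* were lower, most at *Ccnd2* with -1.32 (SE 0.22, limma adjusted p = 0.000129) and -0.45 without centring. Without centring the sign turned at *Ccnd1*, *Ccne1* and *Cdk6*. The *Ccnd1* call was lost without replicate 2 of the quiescent cells or either reactivated library, the *Cdk6* call without replicate 2 of the quiescent or replicate 1 of the reactivated cells, and the *Ccne1* call after quantile normalization. The other sites lower against quiescent cells were the sites 3079 and 6195 bp into *Ccnd3* with -1.13 and -0.45, the strong distal sites of *Ccne1* with -0.46 and *Mycn* with -0.52, and the site upstream of *Myc* with -1.20. Of these the sign turned without centring at the second *Ccnd3* site, at *Mycn* and at *Ccne1*, where the uncentred difference of 0.41 was itself a call in the other direction (limma adjusted p = 0.0168). After quantile normalization the *Ccne1* difference was -0.04 (limma adjusted p = 0.790), that of *Mycn* -0.10 (limma adjusted p = 0.523) and that of the second *Ccnd3* site -0.37 (limma adjusted p = 0.141). The second *Ccnd3* call was also lost without replicate 2 of the quiescent or replicate 1 of the reactivated cells, and the distal *Ccne1* call without replicate 1 of the reactivated cells. Both were lost with the stricter q, the second *Ccnd3* call, the distal *Mycn* call and the *Cdk6* promoter call with the mean of a site's peaks, and the second *Ccnd3* and *Myc* calls in the fit with absent peaks at the lowest value. The *Ccnd2* intron site was higher in reactivated than in quiescent cells by 0.65 (limma adjusted p = 0.0400), and 0.00 without replicate 1 of the quiescent cells. The call was also lost without replicate 2 of the activated cells, without either reactivated library, with the mean and with absent peaks at the lowest value, where the adjusted p of limma ran from 0.0543 to 0.189.

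H3K4me3 was compared with 1 library a state, so no test was possible. The quiescent list gave 20 of its 17166 regions to these genes and the activated list 17 of its 15962, so the quiescent list was the longer one overall as well. A region covered a promoter in both states at 10 of 10 genes, against 59.1% of protein-coding genes. Fold enrichment over input at the strongest region was highest at *Ccnd2*, with 61.1 in quiescent and 66.7 in activated cells, and lowest at *E2f1*, with 20.6 and 18.3, and *Mycn*, with 20.3 and 18.4. The log2 ratio of activated to quiescent ran from -0.31 at *Cdk6* (34.4 to 27.9) to 0.34 at *Myc* (42.1 to 53.1). None of the 10 genes passed 1.5-fold in either direction, where 0.873% of 13519 genes were higher and 5.64% lower. The median ratio was 0.03 for these genes and -0.11 over all genes.

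**Figure D5:**
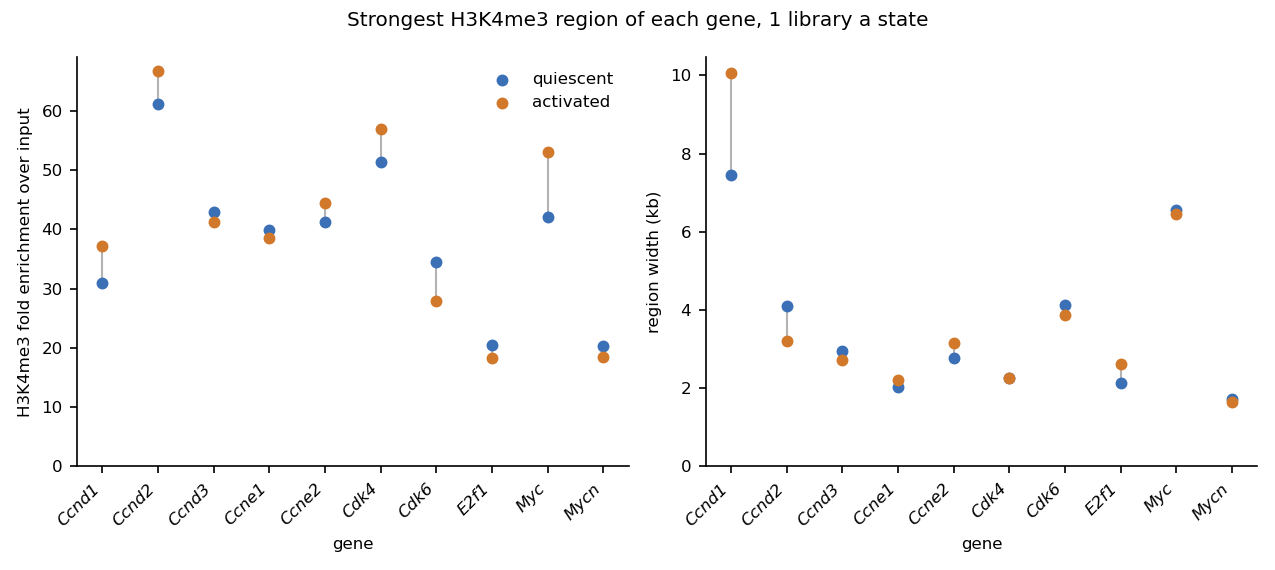
Fold enrichment over input (left) and width in kb (right) of the strongest H3K4me3 region of each gene in the quiescent and activated library, 1 library a state. *Ccnd2* is the highest in enrichment, and *Ccnd1* is the widest, at 7.45 kb in quiescent and 10.05 kb in activated cells.

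The regions of *Ccnd1* and *Myc* were among the widest in the genome. At *Ccnd1* the width was 7452 bp in quiescent and 10048 bp in activated cells, at the 99.5th and 99.9th percentile of the lists, and the region grew on the side of the gene body. At *Myc* it was 6564 and 6455 bp. The region over the *Pvt1* sites was 3556 bp in quiescent and 6679 bp in activated cells, with a fold enrichment of 32.8 and 38.4. Of the 20 quiescent regions, 3 (15%) did not overlap any activated region, against 9.11% of all quiescent regions and 44.5% of those in the lowest 20% by fold enrichment. They were small, lay at the *Ccnd2* intron site, in an intron of *Ccnd3* and at the distal *Mycn* site, and had fold enrichments of 3.45, 4.59 and 2.98, which are percentiles 5.45, 14.3 and 1.02 of the list. None of the 17 activated regions was without overlap, against 2.08% of all activated regions.

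Of 37 other genes of the G1 to S transition, all but *E2f2* had a promoter peak in all 6 ATAC-seq libraries, and all 37 had H3K4me3 at the promoter in both states. The shares of all sites set beside their promoters below include sites outside promoters. No share over promoters alone is given, so an excess cannot be tied to these genes. Between quiescent and activated cells 1 of 36 promoters was higher in activated cells, that of the retinoblastoma gene *Rb1*, against 6.35% of all sites, and 1 was lower, that of *E2f3*, against 7.05%. *Rb1* had 4.08 and 5.99 in quiescent, 10.5 and 8.51 in activated cells, and 12.8 and 13.5 in reactivated libraries, a difference of 0.71 (SE 0.20, limma adjusted p = 0.0171). *E2f3*, whose product is another activating E2F, had 14.2 and 13.1, then 12.1 and 10.7, then 11.5 and 13.3, a difference of -0.48 (SE 0.14, limma adjusted p = 0.0241). The *Rb1* call was lost without replicate 1 of the quiescent cells (0.35), without either activated library, with the mean of a site's peaks and with absent peaks at the lowest value, where the adjusted p of limma ran from 0.0520 to 0.233. The *E2f3* call was lost without centring (-0.26), after quantile normalization (-0.30), with the mean and without any 1 of the 4 quiescent and activated libraries, where the adjusted p of limma ran from 0.0686 to 0.360. Against activated cells 13 of the 36 promoters were lower in reactivated cells relative to the median and none was higher, where 14.5% and 7.66% of all sites were. Without centring 10 were higher and none lower, against 52.6% and 0.472% of all sites, and after quantile normalization 8 were lower and none higher, against 8.92% and 9.31%. Against quiescent cells 21 were lower and 1, *Rb1*, was higher, against 25.7% and 11.5% of all sites. Without centring 19 were higher and none lower, against 68.2% and 0.545%, and after quantile normalization 9 were lower and 2 higher, against 14.1% and 13.6%.

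Across the 300 bases at the summits, the 50 sites of the 10 genes outside promoters were set beside all sites outside promoters. TTGGC was in 30 of 50 windows (60%, against 56.2% of all such sites), CACGTG in 2 of 50 (4%, against 4.02%) and TGACTCA in 2 of 50 (4%, against 8.03%). Of the 24 promoter sites, 4 held CACGTG (16.7%, against 8.26%), 11 held GGCGCC (45.8%, against 23.3%) and 2 held TTTGGCGC (8.33%, against 0.782%). The 4 with CACGTG belong to *Ccnd2*, *Ccne2*, *Cdk4* and *Cdk6*, and the 2 with TTTGGCGC to *E2f1* and *Mycn*. Several of these windows come from the same gene, and a match is only a match of letters.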

How the data were processed

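Peak lists of 6 ATAC-seq libraries (3 states, 2 replicates each) and 2 H3K4me3 libraries were used, and both inputs were not analysed here. According to the submitters' processing notes, reads were handled with Trim Galore 0.4.0, Bowtie2 2.2.5, Picard 1.88, SAMtools 1.3.1 and HOMER on mm10. The authors called peaks with MACS, for ATAC-seq at an FDR of 0.05, and for H3K4me3 as broad regions against input (q 0.05, broad cutoff 0.01, reads extended to 150 bp). Reads of the reactivated libraries were downsampled by the authors before the calls. The fold enrichment deposited by the authors is the ratio of pileup to background or input. The −log10 p and −log10 q values were deposited as the authors' peak caller wrote them, and the deposited score lies within 1 of 10 times −log10 q in 99.9937% or more of the rows of each list. The lists hold no read counts, so the authors' test of reads was not run. Total depth is unknown, and the lowest pileup called, 16 to 25, is the least depth behind a peak.

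Members and lists were chosen with earlier results of these data known. Named sites were every promoter site, the strongest site outside promoters of each gene by mean percentile, state-specific sites and sites past the threshold (at most 20 by size). Overlapping or abutting peaks were merged, and the highest fold enrichment per site and library was taken. Sites with a peak in all 6 libraries were tested with limma 3.58.1 in R 4.3.3 (trended empirical Bayes, all states in 1 fit, two-sided) on log2 values centred on each library's median, with Benjamini-Hochberg adjustment over all sites and a threshold of 0.05. In data simulated for activated against quiescent cells over 23116 sites, 73% of 100 sites changed 2-fold and 100% of 100 changed 4-fold were recovered. Other steps used Python 3.11.15, NumPy 2.4.6, pandas 2.3.3, SciPy 1.17.1 and matplotlib 3.10.9. Alternatives covered scaling, stricter peaks, the mean of a site's peaks, absent peaks at a low value, each library left out, the replicate block, the window and the promoter width. Some items of the chosen lists are not reported here.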

Additional observations from a re-analysis of the deposited data

How the results depend on the processing

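Between activated and quiescent cells, the 2 calls at these genes became 1 without centring, 1 after quantile normalization (higher, against 6.03% of all sites), 1 with the mean of a site's peaks, 0 of 16 at −log10 q of at least 10, and 6 with absent peaks at the stand-in value, an alternative chosen after seeing the data. With 1 library left out the number of sites tested changed, and the calls were not always at the same sites. Without replicate 1 of the quiescent cells, neither of the 2 was among them. Over all sites the 3098 calls became 1116 at the stricter q, 1155 with the mean, 11568 with absent peaks at the lowest value of the list and 10550 at the stand-in value, and 1853 to 2491 with 1 library left out, the fewest without replicate 2 of the quiescent cells. The 6 calls at the stand-in value, of which 2 compare with stand-ins alone, became 3 with the lowest value, and 3 to 8 with 1 library left out, 3 without replicate 1 of the quiescent cells.

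Between reactivated and activated cells, the 8 calls became 5 after quantile normalization (1 higher and 4 lower, against 9.31% and 8.92% of the 23116 sites), 4 at the stricter q and 4 with the mean, and 2 to 9 with 1 library left out, with 2 without replicate 2 of the activated or replicate 1 of the reactivated cells and 3 without replicate 2 of the reactivated cells. Over all sites 5134 became 12275 without centring, 2739, 2007 and 20774 with the stricter q, the mean and the lowest value, and 1039 to 5636 with 1 library left out. Between reactivated and quiescent cells, 12 became 8 after quantile normalization (2 higher and 6 lower, against 13.6% and 14.1%), 7 at the stricter q and 6 to 15 with 1 library left out. Over all sites 8589 became 15882 without centring, 4745, 4596 and 17446 with the stricter q, the mean and the lowest value, and 4529 to 10048 with 1 library left out. The cause was not tested.

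Among the called sites, signs turned only without centring. Between reactivated and activated cells the *Cdk6* promoter was then 0.019, and between reactivated and quiescent cells the promoters of *Ccnd1*, *Ccne1* and *Cdk6* were 0.092, 0.23 and 0.016, and the distal sites of *Ccnd3*, *Ccne1* and *Mycn* 0.42, 0.41 and 0.36. Over single sites, 201 of the other values kept direction and side of the threshold, and 106 kept direction alone.

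The single quiescent-specific site became 2 with lists of equal length and 1 to 5 with 1 library left out, and the 3 activated-specific sites 3 to 11. The promoter count of 10 held under every alternative run. The median H3K4me3 log2 ratio of 0.03 was 0.14 after centring on the shared regions.

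Replicate numbers did not pair the libraries (correlations of deviations -0.0013, 0.042 and -0.017). With the replicate block the calls at these genes were 2, 8 and 12, and over all sites 3231, 5290 and 8731. A peak list holds no value where no peak was called, and with 2 libraries a state the small differences rest on limma's shared spread.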
